A study of Arabidopsis thaliana with 12 samples.

Results

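The genotype by time interaction asks, for each transcript, whether the difference between postdusk and predawn in the Arabidopsis thaliana clock mutant tic-2 differed from the same difference in the wild type Col-0. All 12 libraries of the series entered it, and all 12 belong to the comparison. Of 25729 genes in the table, 19274 had at least 1 FPKM (fragments scaled by transcript length and library size) in at least 3 libraries and were tested. The other 6455 were too low. The interaction was called for 3060 of the 19274 genes (15.9%) at a Benjamini-Hochberg adjusted p under 0.05 in limma. These 3060 genes were then sorted, by group means alone, into transcripts whose time difference was flattened, reduced, reversed, enlarged or newly present in tic-2.

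The groups were tic-2 -/- seedlings at postdusk (ZT12), tic-2 -/- seedlings at predawn (ZT0), Col-0 wild-type seedlings at postdusk and Col-0 wild-type seedlings at predawn, with 3 libraries each. ZT is zeitgeber time in hours after lights-on. TIME FOR COFFEE (TIC), the gene hit in tic-2, acts in the circadian clock, and the series as a whole concerns TIC, hypocotyl growth and phytochrome A. Both genotypes are in the Col-0 ecotype. Every group was of whole seedlings aged 10 days, kept at 22 °C in a regime named LD in the labels, on MS medium with 3% sucrose. The lesion in tic-2 is not stated in the labels, and whether the 3 libraries of a group came from separately grown plants rests on the series' own word, biological replicates. With 2 times of day, a shifted peak and a smaller amplitude cannot be told apart. In whole seedlings, fewer cells of a type and less RNA per cell cannot be told apart either.

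The plant clock is a loop of repressors that follow each other through the day. CCA1 and LHY are MYB repressors made around dawn that bind evening elements in the promoters of dusk genes. The pseudo-response regulators PRR9, PRR7, PRR5 and TOC1 appear in turn and repress CCA1 and LHY, and the evening complex of ELF3, ELF4 and LUX represses PRR genes, GI and PIF4 during the night. Through these factors the clock sets the daily timing of growth, photosynthesis and starch use.

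Depth was between 19255016 and 21750336 reads per library, and replicates correlated across genes at 0.966 to 0.992. In 6 sample records the description field exchanges tic-2 predawn with Col-0 postdusk, so each column was grouped by the genotype and time in its own name. Without those 6 columns no interaction can be computed. The columns named Col-0 ZT12 and Col-0 ZT0 held CCA1 at 0.748 ± 0.0307 and 259 ± 21.2 FPKM (SD, n = 3 each), the low evening and high morning levels of a wild type. CCA1 is itself a result below, so these levels are no independent test of the grouping. TIC stood at 70.9, 62.2 and 106 FPKM in tic-2 at ZT12, 63.9, 70.1 and 98.4 in tic-2 at ZT0, 61.9, 57.5 and 63.1 in Col-0 at ZT12 and 52.1, 56.6 and 56 in Col-0 at ZT0. The tic-2 libraries lettered C were the highest of the 12. The interaction of TIC was -0.12 on the log2(FPKM + 1) scale (adjusted p = 0.815), and its level does not check the genotype. Among markers of other tissues, 0 of 6 root, 0 of 7 seed and 0 of 4 heat shock genes had the interaction called (2, 1 and 1 at an unadjusted p under 0.05 in limma), and 1 of 3 leaf genes did, LHCB1.1 (2 of 3 without both tic-2 libraries lettered C). Of all 19274 genes tested, 15.9% were called and 5573 had an unadjusted p under 0.05 in limma. Lists this short cannot show that the mix of tissues was alike. Summed leaf markers lay between 8845 and 16338.5 FPKM over the 12 libraries, and WOX5, a marker of the root tip, was below the filter. The summed root markers lay between 105 and 125 FPKM in tic-2 at ZT12, 167 and 269.7 in tic-2 at ZT0, 101 and 134 in Col-0 at ZT12 and 158 and 186 in Col-0 at ZT0. The summed heat shock markers lay between 59.9 and 202 FPKM in tic-2 at ZT12, 21.1 and 23.6 in tic-2 at ZT0, 38.5 and 58.5 in Col-0 at ZT12 and 20.9 and 22.7 in Col-0 at ZT0, and their part in the results was not tested. The summed seed markers lay between 183 and 389 FPKM in tic-2 at ZT12, 265 and 679.9 in tic-2 at ZT0, 114 and 283 in Col-0 at ZT12 and 211 and 389.5 in Col-0 at ZT0.

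The interaction was positive, with expression shifted towards ZT12 in tic-2, for 1404 genes (7.28% of those tested), and negative for 1656 (8.59%). That split depended on scaling and on single libraries. Over all genes tested, the median interaction was -0.03 with median-of-ratios rescaling, against -0.11 with the FPKM as deposited. Positive genes made up 60.4% of calls with the rescaling, against 45.9% without it. Negative calls numbered 1068 after that rescaling. With no rescaling but without the Col-0 ZT0 library lettered C, 1103 calls were positive and 1089 negative. Negative calls numbered 2638 without both tic-2 libraries lettered C. With array weights, which weight libraries by their fit, 7954 genes were called. The genes nearest the threshold were AT1G65900 and ASHH3, just inside with interactions of -0.47 and -0.41 (adjusted p = 0.04997 and 0.04998), and DiT1 and AT5G27247, just outside with 0.86 and 1.0 (adjusted p = 0.05001 and 0.05003).

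**Figure D1:**
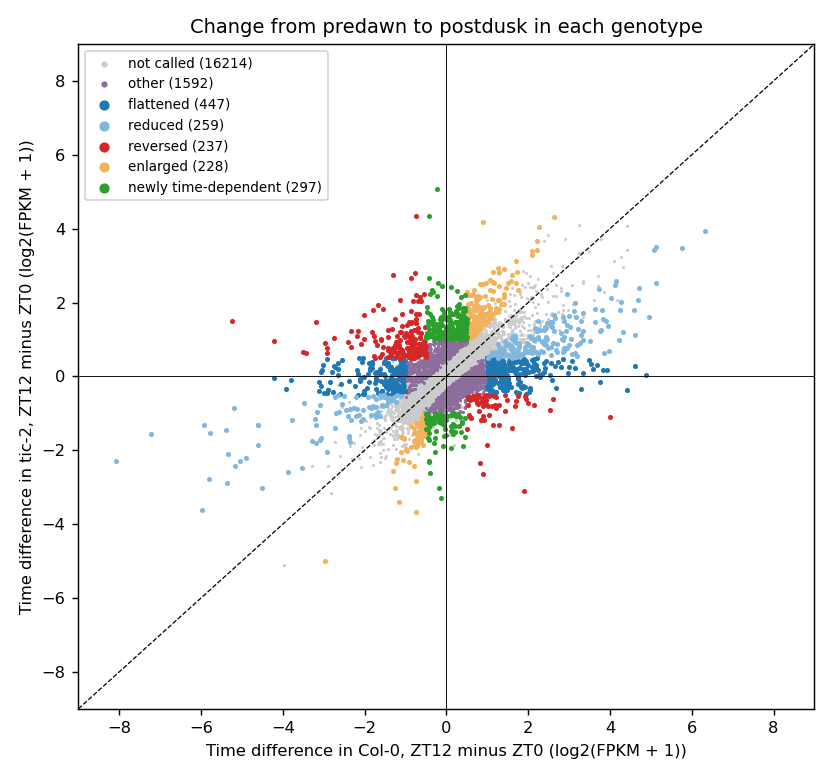
Time difference (ZT12 minus ZT0, log2(FPKM + 1)) in Col-0 on the x axis and in tic-2 on the y axis for the 19274 genes tested, 1 point per gene, coloured by class with the class sizes in the key. The dashed line marks equal differences, and the 447 flattened genes lie along the horizontal line at 0 while the 237 reversed genes lie in the upper left and lower right corners.

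A time difference is the mean log2(FPKM + 1) at ZT12 minus that at ZT0. The largest named class was flattened, with 447 genes that differed by at least 1 between times in Col-0 and by under 0.5 in tic-2. Another 259 genes were reduced, with at least 1 in Col-0 and the same sign in tic-2, at least 0.5 in size and smaller than in Col-0. The reversed class held 237 genes with opposite signs, both at least 0.5 in size. The enlarged class held 228 genes whose difference had the same sign, was at least 0.5 in Col-0, and was larger and at least 1 in tic-2. The newly time-dependent class held 297 genes, whose difference was at least 1 in tic-2 and under 0.5 in Col-0. The remaining 1592 called genes met none of these limits. The class sizes follow from the limits chosen and carry no test of their own. Genes named below by the size of their interaction in a class had to have times that did not overlap in the genotype defining it. For reversed genes this was required in both genotypes. Such separation is therefore no added evidence for these genes.

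Of the 447 flattened genes, the genotypes differed at both times for 200, at ZT0 only for 138, at ZT12 only for 101 and at neither for 8. Of all genes, 27.7% were called at ZT0 and 29.5% at ZT12. The share of all genes called at both times is not given here. The 260 flattened genes that were evening-high in Col-0 had a median time difference of 0.17 in tic-2 and 1.38 in Col-0. The medians of their mean levels were 15.8 FPKM in tic-2 at ZT12, 14.5 in tic-2 at ZT0, 23.8 in Col-0 at ZT12 and 6.38 in Col-0 at ZT0, so the median level in tic-2 lay between the wild-type extremes at both times. At ZT0, 190 of the 260 were called higher in tic-2 and 2 lower, where 13.1% and 14.6% of all genes were called. At ZT12, 7 were called higher and 154 lower, where 9.71% and 19.8% of all genes were called. The genotypes differed at both times for 97 of the 260. A time effect in tic-2 was still called for 43 of the 260, where 37.9% of all genes were called. The 187 flattened morning-high genes were the mirror image, with median time differences of -0.05 in tic-2 and -1.35 in Col-0. Of these, 146 were called lower in tic-2 at ZT0 and 0 higher, and 137 higher and 3 lower at ZT12. The limits of the classes use these same differences, so the counts are a description.

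The wild-type rhythm can also be taken as the starting point. In Col-0, 985 genes were called evening-high with a time difference of at least 1 (of any size, the time effect was called for 37.9% of all genes in tic-2, 18.5% evening-high and 19.4% morning-high, and for 37.1% in Col-0, 22.7% evening-high and 14.4% morning-high). Their median time difference was 0.79 in tic-2 and 1.47 in Col-0, and 112 had the opposite sign in tic-2. The interaction was called for 508 of them (51.6%). Of 605 genes morning-high in Col-0 by the same limits, the interaction was called for 358 (59.2%). Their medians were -0.53 in tic-2 and -1.35 in Col-0, and 166 had the opposite sign in tic-2. These genes were chosen by their Col-0 difference, so the medians of the genotypes are set side by side without a test.

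**Figure D2:**
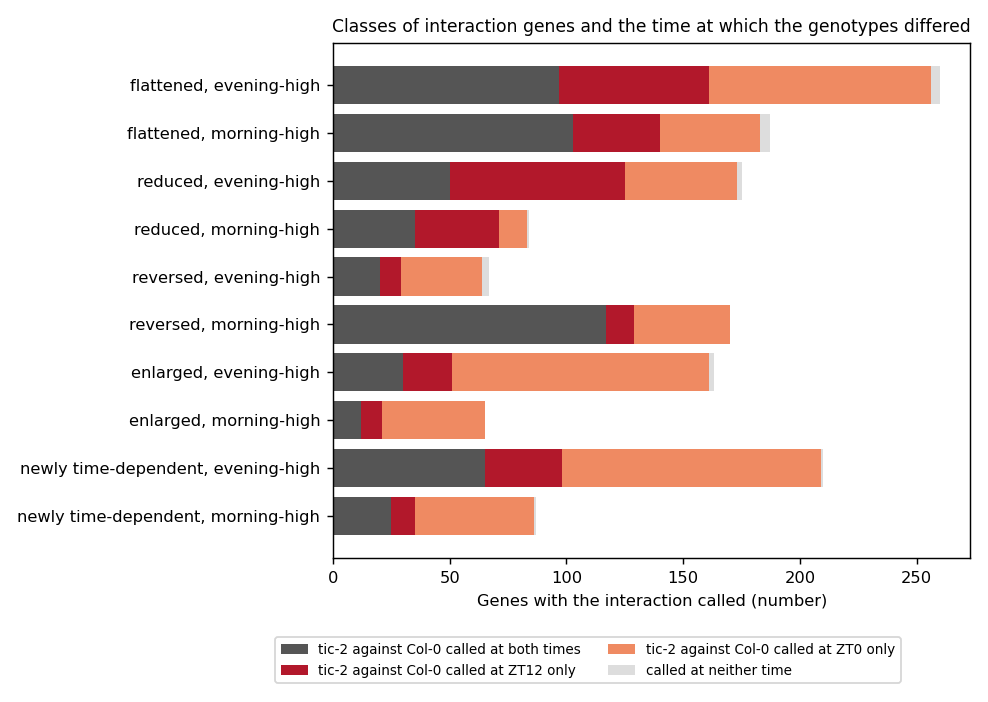
Number of genes in each class of interaction genes, split by the sign of the time difference that defines the class, with bar segments for the time at which tic-2 and Col-0 differed (limma adjusted p under 0.05). Of the 170 reversed morning-high genes 117 differed at both times, whereas most newly time-dependent and enlarged genes differed at ZT0 alone.

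Most morning clock genes had a shallower evening trough in tic-2. Of 16 tested, 11 had a positive and 2 a negative interaction, and the median was 1.78, where 15.9% of all genes were called and the median was -0.11. This list and those below were chosen with earlier results of these data known. LHY stood at 32.3, 29.4 and 32.7 FPKM in tic-2 at ZT12, 155, 151 and 167 in tic-2 at ZT0, 0.517, 0.465 and 0.466 in Col-0 at ZT12 and 374, 417 and 411 in Col-0 at ZT0. No library of tic-2 overlapped a Col-0 library of the same time, and the difference between times was -2.29 in tic-2 and -8.08 in Col-0. The interaction of LHY was 5.79 (SE 0.11, adjusted p = 6.26e-11). CCA1 stood at 60.1, 52.2 and 69.6 FPKM in tic-2 at ZT12, 183, 157 and 198 in tic-2 at ZT0, 0.761, 0.712 and 0.769 in Col-0 at ZT12 and 239, 281 and 258 in Col-0 at ZT0. It was far above the wild type at dusk and moderately below it at dawn, with an interaction of 5.66 (SE 0.16, adjusted p = 2.24e-09). In tic-2 both transcripts stayed higher at dawn than at dusk, but their dawn levels were below those of Col-0. The difference of tic-2 from Col-0 at ZT0 was -1.34 for LHY and -0.53 for CCA1 (adjusted p = 4.23e-07 and 0.00502 in limma). Their dusk levels were far above the low ones of Col-0.

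Most REVEILLE genes, which encode MYB factors related to CCA1, also had the interaction called. RVE8, an activator of evening genes, averaged 22.7 ± 2.33 FPKM in tic-2 at ZT12, 67.5 ± 3.56 in tic-2 at ZT0, 1.74 ± 0.443 in Col-0 at ZT12 and 149.7 ± 9.25 in Col-0 at ZT0 (SD, n = 3 each). Its interaction was 4.25 (adjusted p = 2.96e-08). RVE1, linked to auxin synthesis, had an interaction of 4.62 and RVE4 one of 1.54 (adjusted p = 8.66e-07 and 5.41e-06). RVE2 was flattened, at 294 ± 38.6 FPKM in tic-2 at ZT12 against 310.3 ± 46.2 at ZT0, and at 111 ± 10.3 FPKM in Col-0 at ZT12 against 480.3 ± 52.9 at ZT0. RVE3 was the list's reversed gene, at 3.65, 3.07 and 4.11 FPKM in tic-2 at ZT12, 2.5, 1.55 and 1.14 in tic-2 at ZT0, 0.987, 0.438 and 0.847 in Col-0 at ZT12 and 11.1, 12.5 and 12.7 in Col-0 at ZT0 (interaction 3.69, adjusted p = 1.77e-06). The tic-2 values of RVE3 were high at dusk and low at dawn, without overlap, and the Col-0 values were the other way round. RVE3 overlaps AT1G01510 on the same strand, so reads of the 2 genes may be mixed. The interaction was not called for RVE7 (-0.10, adjusted p = 0.864) or for AT5G52660 (0.24, adjusted p = 0.296). AT5G52660 was called with array weights (adjusted p = 0.00791). For AT4G01280 the call (0.53, adjusted p = 0.0242) was lost when any of 6 single libraries was left out, with a highest adjusted p of 0.063.

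Of the LNK genes, which encode coactivators that act with RVE8, LNK2, LNK3 and LNK4 were reduced. LNK2 averaged 47.9 ± 4.35 FPKM in tic-2 at ZT12, 337 ± 73.2 in tic-2 at ZT0, 5.57 ± 0.836 in Col-0 at ZT12 and 365 ± 32.7 in Col-0 at ZT0 (interaction 3.03, adjusted p = 1.72e-06). Here the genotypes differed at dusk, where tic-2 was 2.9 above Col-0 on the log2 scale, and at dawn tic-2 was -0.13 from it (adjusted p = 0.552). The interactions of LNK3 and LNK4 were 2.48 and 1.49 (adjusted p = 6.82e-05 and 0.000501). LNK1 had an interaction of 0.66 (SE 0.37, adjusted p = 0.267). LNK1 to LNK4 each overlap a neighbouring gene, on the opposite strand except for LNK4, and strand use in counting is not given.

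The 2 negative members of the morning list were PRR7 and PRR9, daytime repressors of CCA1 and LHY. PRR7 stood at 46.1, 44.7 and 61.4 FPKM in tic-2 at ZT12, 45.9, 41.8 and 52.9 in tic-2 at ZT0, 18.4, 17.1 and 23.8 in Col-0 at ZT12 and 0.891, 0.987 and 1.26 in Col-0 at ZT0. The tic-2 libraries of the 2 times overlapped and all lay above every Col-0 library. Its time difference was 0.10 in tic-2 and 3.33 in Col-0 (interaction -3.23, SE 0.21, adjusted p = 1.37e-06). PRR9 was at 3.38, 3.23 and 3.97 FPKM in tic-2 at ZT12 and 10.1, 6.78 and 8.9 in tic-2 at ZT0, against 0.331, 0.488 and 0.489 in Col-0 at ZT12 and 0.0913, 0.433 and 0.167 in Col-0 at ZT0. It was thus high in tic-2 at both times, more so at dawn, and under 0.5 FPKM in every Col-0 library (interaction -1.3, adjusted p = 0.00137).

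Most evening clock genes moved the other way. Of 12 tested, 10 had a negative and 1 a positive interaction (8.59% and 7.28% of all genes), and the median was -2.37. The median time difference was 0.35 in tic-2 and 3.35 in Col-0. PRR5 stood at 16.3, 14.1 and 24 FPKM in tic-2 at ZT12, 17.1, 14.3 and 15.6 in tic-2 at ZT0, 20.8, 19.3 and 18.9 in Col-0 at ZT12 and 0.437, 0.522 and 0.365 in Col-0 at ZT0. Levels in tic-2 overlapped between the times, and only the Col-0 dawn libraries were low. The interaction of PRR5 was -3.67 (SE 0.22, adjusted p = 6.15e-07). TOC1, the last of the pseudo-response regulators, stood at 69.4, 67 and 96.7 FPKM in tic-2 at ZT12, 42, 42.5 and 42 in tic-2 at ZT0, 88.7, 92.6 and 84.2 in Col-0 at ZT12 and 8.77, 8.94 and 8.44 in Col-0 at ZT0. The dawn groups were fully apart while the dusk groups overlapped, and the interaction was -2.36 (SE 0.17, adjusted p = 2.22e-06).

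GI, a large protein of photoperiodic flowering, followed the same pattern with a wider range. It was at 20, 17.3 and 24.6 FPKM in tic-2 at ZT12, 5.48, 5.52 and 4.41 in tic-2 at ZT0, 24, 23.4 and 31.5 in Col-0 at ZT12 and 0.0794, 0.179 and 0.142 in Col-0 at ZT0 (interaction -2.77, adjusted p = 2.85e-06). Its dusk groups overlapped and its dawn groups did not. PRR3, a partner of TOC1, had an interaction of -3.14 and the blue-light receptor gene FKF1 one of -3.35 (adjusted p = 1.01e-07 and 3.5e-07). FKF1 differed at both times, lower in tic-2 at dusk (-1.7, adjusted p = 9.45e-06) and higher at dawn (1.65, adjusted p = 3.77e-06).

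All the evening complex genes were called. LUX averaged 26.3 ± 0.585 FPKM in tic-2 at ZT12, 19 ± 1 in tic-2 at ZT0, 25.9 ± 4.2 in Col-0 at ZT12 and 1.38 ± 0.222 in Col-0 at ZT0 (SD, n = 3 each; interaction -3.04, adjusted p = 3.31e-07). BOA, its homologue, had an interaction of -1.84 and ELF3, the scaffold of the complex, one of -1.23 (adjusted p = 5.22e-06 and 5.06e-05). ELF4 kept a large time difference in tic-2, 3.95 against 6.32 in Col-0, and its interaction was -2.38 (adjusted p = 0.000172). CHE, a TCP repressor of CCA1, had an interaction of -0.98 (adjusted p = 0.0196), a call lost without the Col-0 ZT0 library lettered C (adjusted p = 0.0517). ZTL, an F-box blue-light receptor, was the 1 positive gene (0.57, adjusted p = 0.00336), and its homologue LKP2 was not called (-0.12, adjusted p = 0.615). LUX, ELF3 and FKF1 overlap genes on the opposite strand.

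**Figure D3:**
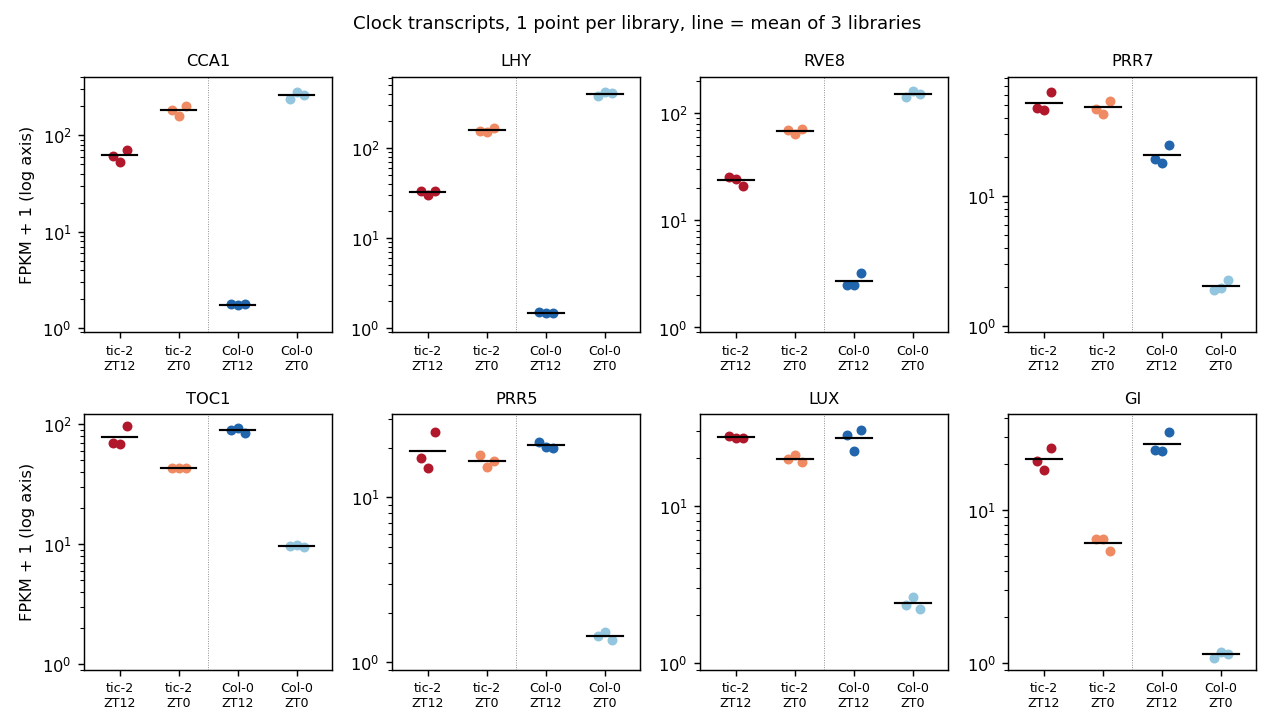
FPKM + 1 on a log axis for 8 clock genes in tic-2 and Col-0 at ZT12 and ZT0, 1 point per library and a line at the mean of 3 libraries. CCA1, LHY and RVE8 have a deep ZT12 trough in Col-0 alone, and PRR7, TOC1, PRR5, LUX and GI have a deep ZT0 trough in Col-0 alone.

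Promoter sequence was set beside these classes because CCA1 and LHY are known to bind the evening element. The window searched ran from 250 bases before to 50 bases after the annotated start (RefSeq, TAIR10.1), on both strands, for 8 motifs, among them AAAATATCT (the evening element) and CACGTG (the G-box, bound by bHLH and bZIP factors). The evening element was in 52 of 260 flattened evening-high promoters (20%), in 20.6% of reduced evening-high promoters and in 11.9% of reversed evening-high promoters, against 3.01% of the promoters of all genes tested (577 of 19140). Evening-high genes of Col-0 as a whole held it in 13.0%. It was in 1.08% of flattened morning-high promoters and 1.91% of newly time-dependent evening-high promoters. The G-box was in 21.0% of flattened, 20.2% of reduced and 17.8% of reversed morning-high promoters, against 9.08% of all genes tested, and in 17.6% of the morning-high genes of Col-0. A shorter core of the evening element, AATATCT, which every evening element contains, was in 33.8% of flattened evening-high promoters and 11.7% of all. AAAAATCT, the other known CCA1-binding site, was in 10.0% of flattened and 9.14% of reduced evening-high promoters, against 8.05% of all genes tested. For flattened evening-high, flattened morning-high and all genes tested, in that order, the shares were 13.5%, 20.4% and 12.9% for CACATG (the HUD element), 18.1%, 17.7% and 14.9% for GATAAG (the I-box) and 49.6%, 59.7% and 53.3% for CCAAT. AAACCCTA (the telo-box) was in 1.15% of flattened evening-high and 0.538% of flattened morning-high promoters, against 5.58% of all genes tested. These shares are descriptions of letters in a window, and a match is not evidence of binding.

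The 6 promoters below carry these motifs in genes whose rhythm was flattened or reduced. They are examples and not typical of their classes. Most flattened or reduced evening-high promoters lacked the evening element, and most such morning-high promoters lacked the G-box. Each is the 250 bases before the start, 5′ to 3′ on the gene's strand, with evening elements (AAAATATCT, or AGATATTTT where it lies on the other strand) and G-boxes in capitals. TOC1 lies at chr5:24674713-24674962 on the + strand, PRR5 at chr5:8358547-8358796 on the - strand, LUX at chr3:17182792-17183041 on the + strand, GRP7 at chr2:9266558-9266807 on the - strand, LHY at chr1:37872-38121 on the - strand and BBX30 at chr4:8708591-8708840 on the + strand. TOC1, PRR5, LUX and GRP7 were evening-high in Col-0, and LHY and BBX30 were morning-high.
TOC1: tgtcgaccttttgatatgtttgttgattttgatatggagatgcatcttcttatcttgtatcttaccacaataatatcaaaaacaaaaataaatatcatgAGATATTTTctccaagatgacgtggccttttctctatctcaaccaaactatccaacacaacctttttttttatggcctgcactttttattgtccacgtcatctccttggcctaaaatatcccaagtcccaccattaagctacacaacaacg
PRR5: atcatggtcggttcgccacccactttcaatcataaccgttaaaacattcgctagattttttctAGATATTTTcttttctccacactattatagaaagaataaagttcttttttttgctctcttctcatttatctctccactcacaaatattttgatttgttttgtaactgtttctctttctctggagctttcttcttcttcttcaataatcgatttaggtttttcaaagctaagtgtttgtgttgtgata
LUX: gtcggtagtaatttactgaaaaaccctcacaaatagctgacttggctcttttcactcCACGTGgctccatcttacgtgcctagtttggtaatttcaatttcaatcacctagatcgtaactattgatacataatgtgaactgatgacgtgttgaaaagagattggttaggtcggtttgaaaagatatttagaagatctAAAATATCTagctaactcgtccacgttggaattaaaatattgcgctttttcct
GRP7: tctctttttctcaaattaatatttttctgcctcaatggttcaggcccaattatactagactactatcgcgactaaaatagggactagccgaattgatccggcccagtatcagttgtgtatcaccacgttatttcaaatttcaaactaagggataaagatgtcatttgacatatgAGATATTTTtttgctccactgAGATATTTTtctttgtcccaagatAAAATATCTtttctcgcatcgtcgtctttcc
LHY: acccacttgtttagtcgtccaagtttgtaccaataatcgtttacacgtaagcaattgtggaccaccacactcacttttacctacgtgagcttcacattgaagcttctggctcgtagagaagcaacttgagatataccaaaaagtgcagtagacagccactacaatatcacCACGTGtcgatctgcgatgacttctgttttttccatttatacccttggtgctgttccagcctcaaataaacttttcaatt
BBX30: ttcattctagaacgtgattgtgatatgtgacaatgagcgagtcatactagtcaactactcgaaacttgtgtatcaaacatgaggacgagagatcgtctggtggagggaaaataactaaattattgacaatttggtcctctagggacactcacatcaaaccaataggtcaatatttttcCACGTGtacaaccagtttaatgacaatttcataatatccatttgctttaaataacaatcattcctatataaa
The evening element begins 151 bases before the start in TOC1, 187 in PRR5 and 53 in LUX, and GRP7 holds 3 of them, at 76, 55 and 31 bases. The G-box begins 193 bases before the start in LUX, 80 in LHY and 72 in BBX30.

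**Figure D4:**
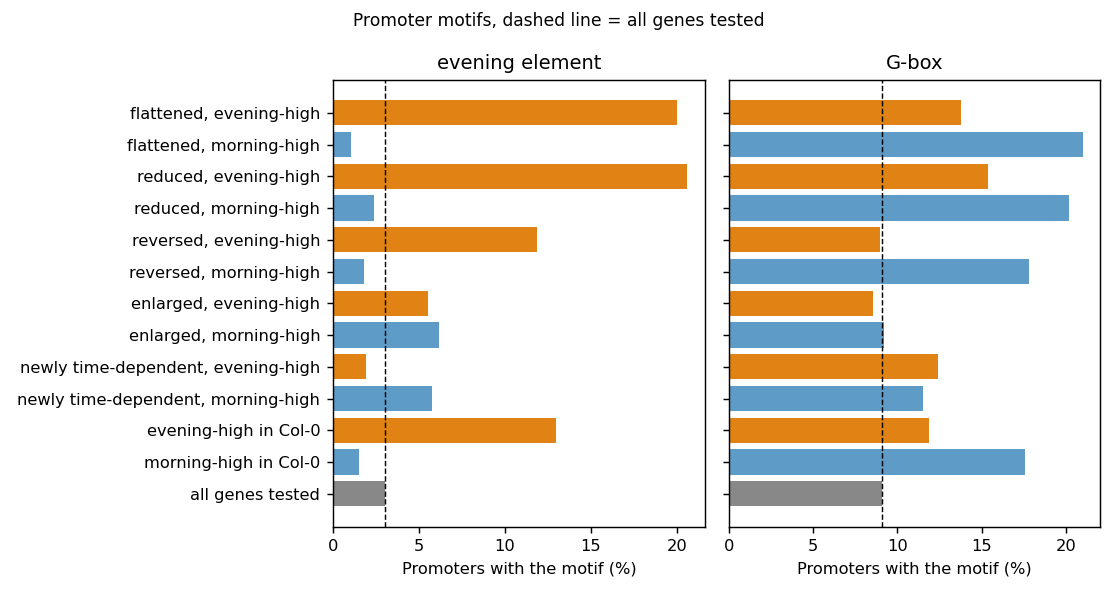
Share of promoters (300 bases, both strands, x axis in percent) that hold the evening element (left) or the G-box (right) in each class, in the rhythmic genes of Col-0 and in all genes tested, with the dashed line at the last of these. Flattened and reduced evening-high genes stand at 20% and 20.6% for the evening element, and flattened and reduced morning-high genes at 21.0% and 20.2% for the G-box.

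Outside the clock, the strongest flattening was in dusk transcripts that stayed high at dawn in tic-2. CCL, a CCR-like gene, stood at 939, 852 and 1261 FPKM in tic-2 at ZT12, 956, 945 and 1045 in tic-2 at ZT0, 1552, 1362 and 1479 in Col-0 at ZT12 and 50.4, 49.9 and 45.3 in Col-0 at ZT0. The tic-2 times overlapped, while Col-0 at dawn was far below every other group (interaction -4.85, SE 0.19, adjusted p = 2.96e-08). MEE14 averaged 118 ± 22.7 and 152 ± 14 FPKM in tic-2 at ZT12 and ZT0, against 173 ± 32.6 and 7.08 ± 1 in Col-0 (interaction -4.79, adjusted p = 1.55e-07). AT3G62550, annotated as an adenine nucleotide alpha hydrolase-like protein, had an interaction of -4.34 (adjusted p = 5.52e-09).

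A pair of flattened genes lost their dusk level in place of their dawn trough. PCC1, a pathogen and circadian controlled gene, was at 0.248, 0.336 and 1.67 FPKM in tic-2 at ZT12 and 0, 0.195 and 1.56 in tic-2 at ZT0, against 25.2, 11.4 and 20.2 in Col-0 at ZT12 and 0.632, 0 and 0.198 in Col-0 at ZT0. Only the Col-0 dusk libraries were high (interaction -3.75, adjusted p = 0.000684). AT3G22235, a cysteine-rich transmembrane module gene, was at 1.82 ± 0.632 and 2.35 ± 1.53 FPKM in tic-2 at ZT12 and ZT0, against 39.2 ± 12.9 and 2.05 ± 1.41 in Col-0 (interaction -3.93, adjusted p = 0.000434). Both lie near TIC on chromosome 3, PCC1 from 7845823 to 7846833 and AT3G22235 from 7854419 to 7855814, with TIC from 7912905 to 7919707 (TAIR10.1). Whether that position has a part in their levels was not tested.

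Flattened morning genes included regulators of light and plastid gene expression. AT1G64500, a glutaredoxin family gene, stood at 51.4, 43.6 and 73.7 FPKM in tic-2 at ZT12, 59.1, 45.8 and 67.6 in tic-2 at ZT0, 11, 9.5 and 10.8 in Col-0 at ZT12 and 206, 218 and 213 in Col-0 at ZT0. Both tic-2 groups overlapped each other and lay between the Col-0 groups (interaction 4.17, adjusted p = 6.15e-07). SIGE, a sigma factor of the plastid RNA polymerase, was at 24 ± 3.52 FPKM in tic-2 at ZT12 and 17.2 ± 3.53 in tic-2 at ZT0, against 5.5 ± 0.544 in Col-0 at ZT12 and 48 ± 3.37 in Col-0 at ZT0 (interaction 3.38, adjusted p = 7.6e-07). BBX30, a small B-box protein gene, averaged 1.2 ± 0.48 and 1.94 ± 1.14 FPKM in tic-2 at ZT12 and ZT0, against 0.259 ± 0.195 and 18.2 ± 2.99 in Col-0, so its dawn peak was the part missing (interaction 3.58, adjusted p = 7.78e-05). The same held for AT4G27360, a dynein light chain family gene (interaction 3.71). AT5G54130, an endonuclease family gene, had an interaction of 3.21 (adjusted p = 8.27e-07). Other B-box genes were reduced, BBX16 by an interaction of 4.33 and STH by 3.92 (adjusted p = 2.17e-06 and 5.89e-07).

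All 9 tested genes of photoperiod and clock output had the interaction called, 5 positive and 4 negative (7.28% and 8.59% of all genes). GRP7, a glycine-rich RNA-binding protein that feeds back on its own transcript, stood at 916, 886 and 585 FPKM in tic-2 at ZT12, 531, 513 and 409 in tic-2 at ZT0, 2472, 2360.4 and 2865 in Col-0 at ZT12 and 184, 160.0 and 144 in Col-0 at ZT0. Its wild-type swing was cut from both sides, with every tic-2 library between the Col-0 groups (interaction -3.28, SE 0.25, adjusted p = 3.74e-06). The catalases split by their own time of day. CAT2, the photorespiratory catalase of the morning, was reversed, at 779, 655 and 958 FPKM in tic-2 at ZT12, 410.1, 341 and 366 in tic-2 at ZT0, 225, 221 and 219.6 in Col-0 at ZT12 and 1009, 1004 and 1031 in Col-0 at ZT0 (interaction 3.27, adjusted p = 3.68e-07). Dusk was the higher time in tic-2 and dawn in Col-0, with no overlap between times in either genotype. CAT3, the evening catalase, was flattened, at 1249 ± 62.9 and 1545 ± 225 FPKM in tic-2 at ZT12 and ZT0, against 1022 ± 174 and 339 ± 16.9 in Col-0 (interaction -1.87, adjusted p = 4.55e-05). COL2, a CONSTANS-like gene, had an interaction of 2.75 and CDF1, a repressor of flowering, one of 2.71 (adjusted p = 1.84e-06 and 8.83e-05). CO, FT and AT1G69570 were below the filter and COL1 was not analysed here.

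Starch breakdown genes were mostly reduced. Of 16 tested, 10 had a negative and 3 a positive interaction (8.59% and 7.28% of all genes), and the median was -1.15. The 10 negative genes were all in the reduced class, evening-high in both genotypes. AMY3, a plastid alpha-amylase, stood at 36.5, 34.5 and 46 FPKM in tic-2 at ZT12, 21.1, 17.7 and 13.4 in tic-2 at ZT0, 73.7, 74.5 and 79.1 in Col-0 at ZT12 and 1.61, 2.14 and 2.85 in Col-0 at ZT0. The 4 groups did not overlap, and tic-2 lay inside the Col-0 range (interaction -3.47, SE 0.24, adjusted p = 2.1e-06). The plastid phosphorylase PHS1 had an interaction of -2.52 (adjusted p = 1.8e-05). The glucan water dikinase GWD1 had one of -1.42 and the debranching enzyme ISA3 one of -2.15 (adjusted p = 0.000841 and 7.21e-05).

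The 3 positive starch breakdown genes were the beta-amylase genes BAM1, BAM3 and BAM9. BAM3, a catalytic plastid beta-amylase of the night, was newly time-dependent, at 178, 185 and 236 FPKM in tic-2 at ZT12, 19.7, 32.4 and 44.3 in tic-2 at ZT0, 167, 193 and 174 in Col-0 at ZT12 and 255, 211 and 251 in Col-0 at ZT0. The tic-2 dawn libraries were low and apart from the other 3 groups (interaction 3.08, adjusted p = 3.9e-05). BAM9, a non-catalytic family member, was reversed, averaging 76.1 ± 7.96 and 49.6 ± 10.6 FPKM in tic-2 at ZT12 and ZT0, against 19.2 ± 1.37 and 222 ± 48.6 in Col-0 (interaction 4.07, adjusted p = 9.01e-07). BAM1 had a smaller interaction of 0.85 (adjusted p = 0.0126). BAM3 and BAM9 each overlap a gene on the opposite strand. Of 10 starch synthesis genes 3 were positive and 1 negative (2 and 2 without both tic-2 libraries lettered C). Over all genes 7.28% were positive and 8.59% negative. GBSS1, the granule-bound starch synthase of the morning, was flattened, at 155 ± 23.3 and 128 ± 9.56 FPKM in tic-2 at ZT12 and ZT0, against 46.4 ± 20.7 and 297 ± 36.2 in Col-0 (interaction 3, adjusted p = 8.83e-05). SS2, a soluble starch synthase, had an interaction of 1.24 and the branching enzyme SBE2.1 one of -1.07 (adjusted p = 0.000802 and 0.000227).

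Some light-harvesting genes lost part of their dusk decline. Of 16 tested, 8 had a positive and 0 a negative interaction (6 positive after quantile normalization), and the median was 0.69. Over all genes 7.28% were positive and 8.59% negative. Of the 8, 5 were reduced and 2 flattened, all morning-high, and LHCB4.3 was enlarged and evening-high. LHCB2.1 stood at 360.1, 285 and 362 FPKM in tic-2 at ZT12, 1757, 1408 and 1482 in tic-2 at ZT0, 80.9, 60.3 and 79.6 in Col-0 at ZT12 and 2233, 2186 and 2172 in Col-0 at ZT0. Morning levels remained far above evening levels in both genotypes, and the tic-2 evening level was the higher of the 2 (interaction 2.69, adjusted p = 2.82e-06). LHCB1.1 had an interaction of 2.36 and LHCB2.3 one of 2.76 (adjusted p = 4.88e-06 and 1.14e-05). Members of the LHCB1 and LHCB2 families are near-identical in sequence and uncertain one by one. The photosystem I antenna genes LHCA1, LHCA2, LHCA3 and LHCA4 had interactions of 0.16, 0.18, 0.06 and 0.50, none called (adjusted p = 0.0939 for LHCA4).

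In light signalling, 6 of 20 genes had a positive and 3 a negative interaction (7.28% and 8.59% of all genes), with a median of -0.04. That median was 0.06 after median-of-ratios rescaling and 0.04 after quantile normalization, and without both tic-2 libraries lettered C 6 genes were positive and 5 negative. PHYA, the far-red light receptor gene, stood at 22.7, 19.3 and 22.3 FPKM in tic-2 at ZT12, 86.5, 90.8 and 66.5 in tic-2 at ZT0, 21.9, 22.6 and 21.4 in Col-0 at ZT12 and 31.1, 33.1 and 35.8 in Col-0 at ZT0. The genotypes overlapped at dusk and were apart at dawn, and the morning-high difference was enlarged, -1.87 in tic-2 against -0.58 in Col-0 (interaction -1.29, SE 0.16, adjusted p = 0.000204). FHY1, which carries phytochrome A into the nucleus, also had a negative interaction (-1.02, adjusted p = 0.00268). The interactions of PHYB, PHYC, PHYD and PHYE were -0.15, -0.09, -0.37 and 0.18, and none was called. HYH, a bZIP factor of light responses, was flattened, at 27.9 ± 5.35 and 22.4 ± 5.89 FPKM in tic-2 at ZT12 and ZT0, against 11 ± 1.43 and 96.5 ± 5.54 in Col-0 (interaction 3.35, adjusted p = 3.87e-06). Its relative HY5 was reversed, with an interaction of 1.3 (adjusted p = 0.000421). The COP1 partner genes SPA1, SPA3 and SPA4 were reversed as well, with interactions of 1.37, 2.18 and 1.7 (adjusted p = 0.00475, 4.88e-06 and 3.81e-05). The remaining family member, SPA2, had an interaction of 0.02 (SE 0.16, adjusted p = 0.962) and time differences of 0.46 in tic-2 and 0.44 in Col-0. SPA3 averaged 29.4 ± 3.43 and 17 ± 2.83 FPKM in tic-2 at ZT12 and ZT0, against 17.9 ± 1.1 and 49.6 ± 4.01 in Col-0.

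PIF genes and their targets had no positive call as deposited. Of 14 tested, 6 had a negative interaction (8.59% of all genes) and the median was -0.65. After median-of-ratios rescaling or quantile normalization 1 was positive and 5 negative. PIF4, a bHLH activator of hypocotyl growth, was reversed, at 28.8, 23.5 and 39.1 FPKM in tic-2 at ZT12, 86.4, 78.3 and 74.4 in tic-2 at ZT0, 25.1, 16.6 and 23.8 in Col-0 at ZT12 and 5.55, 6.78 and 6.93 in Col-0 at ZT0. It was evening-high in Col-0 and morning-high in tic-2, without overlap between times in either genotype (interaction -2.99, SE 0.26, adjusted p = 9.76e-06). PIF5, its close homologue, had an interaction of 0.46 (SE 0.23, adjusted p = 0.227). The target IAA29, an auxin response gene, was enlarged, at 1.64 ± 0.778 and 25.8 ± 1.96 FPKM in tic-2 at ZT12 and ZT0, against 1.73 ± 0.426 and 5.24 ± 1.66 in Col-0 (interaction -2.22, adjusted p = 0.000725). PIL1, a shade-induced bHLH gene, had an interaction of -1.77 and PAR1, a growth repressor, one of -1.93 (adjusted p = 0.000747 and 0.000479). XTH15, a cell wall enzyme gene, was at 1.79, 1.51 and 2.13 FPKM in tic-2 at ZT12 and 8.59, 38.2 and 52.3 in tic-2 at ZT0, against 2.68, 4.33 and 2.85 in Col-0 at ZT12 and 4.82, 3.2 and 3 in Col-0 at ZT0. The tic-2 dawn libraries were the high ones and library A among them was the lowest (interaction -3.16, adjusted p = 0.00718).

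Several carbon starvation genes shifted towards dawn in tic-2. Of 11 tested, 6 had a negative and 0 a positive interaction (8.59% and 7.28% of all genes), and the median was -2.03. DRM2, a dormancy-associated gene, was reversed, at 137, 119 and 179.8 FPKM in tic-2 at ZT12, 263, 342 and 317 in tic-2 at ZT0, 462, 338 and 255 in Col-0 at ZT12 and 24.6, 17.6 and 19.6 in Col-0 at ZT0. Dawn was the high time in tic-2 and dusk in Col-0, with no overlap (interaction -5.09, SE 0.30, adjusted p = 6.15e-07). Its relative DRM1 had an interaction of -2.91 (adjusted p = 1.09e-05). DIN6, an asparagine synthetase gene, was enlarged, at 7.57, 7.66 and 18 FPKM in tic-2 at ZT12 and 289.7, 387 and 399 in tic-2 at ZT0, against 5.65, 6.68 and 3.39 in Col-0 at ZT12 and 52.2, 28.8 and 65.5 in Col-0 at ZT0 (interaction -2.03, adjusted p = 0.0151). Its tic-2 dawn libraries stood apart above all others. DIN1, a senescence-associated gene, spread widely in tic-2 at dawn, from 184 to 685 FPKM, against 26.0 to 54.8 in Col-0 at dawn (interaction -2.94, SE 0.71, adjusted p = 0.0151). Of the cold response genes, 5 of 10 were negative and 0 positive (4 negative after either rescaling), with a median of -1.04. The shares of all genes are those given above, 8.59% and 7.28%. COR15B, a plastid cold protein gene, was flattened, at 19.5 ± 1.24 and 18.7 ± 5.15 FPKM in tic-2 at ZT12 and ZT0, against 36.4 ± 3.81 and 3.76 ± 0.683 in Col-0 (interaction -2.89, adjusted p = 5.73e-06). COR27, a cold- and clock-regulated gene, had an interaction of -2.35 and AT4G33980 one of -3.24 (adjusted p = 0.000114 and 1.03e-05).

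Reversed genes were most often morning-high in Col-0, 170 of 237, and 67 were evening-high. A time effect was called for 212 of the 237 in tic-2 and for 217 in Col-0 (37.9% and 37.1% of all genes). The class limits require a time difference in both genotypes, so these counts are a description and no enrichment. The 170 had a median time difference of 0.85 in tic-2 and -0.92 in Col-0. At ZT0, 158 of them were called lower in tic-2 and 0 higher, where 14.6% and 13.1% of all genes were called. At ZT12, 127 were called higher and 2 lower, where 9.71% and 19.8% of all genes were called. These directions follow largely from the class limits. Of the reversed genes named, AT2G15020, an uncharacterised gene, had the largest interaction. It was at 10.7, 11.8 and 18.1 FPKM in tic-2 at ZT12, 5.19, 2.72 and 4.44 in tic-2 at ZT0, 1.16, 0.643 and 1.34 in Col-0 at ZT12 and 71.5, 76.3 and 80.7 in Col-0 at ZT0. The times did not overlap in either genotype, as the choice of these genes required, and the interaction of AT2G15020 was 6.75 (SE 0.30, adjusted p = 1e-07). NDA1, an alternative NAD(P)H dehydrogenase of mitochondria, stood at 35.5, 30.8 and 28.7 FPKM in tic-2 at ZT12, 18.1, 15.4 and 14.4 in tic-2 at ZT0, 2.35, 2.18 and 2.62 in Col-0 at ZT12 and 62.6, 61.1 and 63.1 in Col-0 at ZT0. Its tic-2 dusk libraries were all above its tic-2 dawn libraries, and both lay between the Col-0 groups (interaction 5.17, SE 0.15, adjusted p = 2.24e-09). AT2G27420, a cysteine proteinase gene, exceeded both Col-0 groups at dusk in tic-2, at 25.1 ± 2 and 0.292 ± 0.0434 FPKM in tic-2 at ZT12 and ZT0, against 1.68 ± 0.682 and 3.39 ± 0.576 in Col-0 (interaction 5.07, adjusted p = 1.01e-07). BBX32, a B-box regulator, had an interaction of 4.68 and AT1G55960, a polyketide cyclase and lipid transport family gene, one of 4.19 (adjusted p = 1.33e-06 and 1.15e-08).

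Among the 67 genes reversed the other way, the median time difference was -0.71 in tic-2 and 0.92 in Col-0. COR413IM1, a cold-regulated plastid envelope gene, stood at 154, 141 and 147 FPKM in tic-2 at ZT12, 290.2, 272 and 277 in tic-2 at ZT0, 57.6, 51.8 and 42.3 in Col-0 at ZT12 and 6.55, 10.3 and 7.24 in Col-0 at ZT0. Every tic-2 library exceeded every Col-0 library, and within tic-2 dawn was the higher time (interaction -3.44, adjusted p = 6.15e-07). AT2G15880, a leucine-rich repeat gene, had an interaction of -4.99 (adjusted p = 3e-06). MIOX2, a myo-inositol oxygenase gene, was at 2.57, 22.8 and 52.6 FPKM in tic-2 at ZT0, a spread that put its call at the margin (interaction -3.55, SE 0.98, adjusted p = 0.0291). That call was lost under 9 of 22 alternatives, with a highest adjusted p of 0.0754. The time difference of MIOX2 in Col-0 was 0.91 and was not called (adjusted p = 0.336 in limma), so MIOX2 is reversed by group means alone.

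Newly time-dependent genes differed between times mainly in tic-2, as the class limits require. A smaller time effect was called in Col-0 for 92 of 297, where 37.1% of all genes were called. Of the 297, 210 were evening-high and 87 morning-high in tic-2. The 210 had a median time difference of 1.26 in tic-2 and 0.15 in Col-0. At ZT0, 175 of them were called lower in tic-2 and 1 higher (14.6% and 13.1% of all genes). The class was sorted by the same group means, so these counts are a description. SQP1, a squalene monooxygenase homologue, stood at 65.7, 67.3 and 97.3 FPKM in tic-2 at ZT12, 1.4, 1.37 and 1.07 in tic-2 at ZT0, 33, 30.5 and 42.2 in Col-0 at ZT12 and 36.9, 39 and 47.4 in Col-0 at ZT0. The Col-0 times overlapped, while tic-2 was below every Col-0 library at dawn and above every one at dusk (interaction 5.29, SE 0.23, adjusted p = 9.26e-08). AT3G28270, a predicted membrane protein gene, averaged 53.4 ± 2.56 and 1.77 ± 0.904 FPKM in tic-2 at ZT12 and ZT0, against 33.5 ± 8.18 and 44.8 ± 7.15 in Col-0 (interaction 4.77, adjusted p = 1.08e-06). D27, a beta-carotene isomerase of strigolactone synthesis, had an interaction of 2.72 and SDR1, an aldehyde reductase gene, one of 2.7 (adjusted p = 4.76e-07 and 4.2e-06). The serine carboxypeptidase-like gene scpl10 had one of 2.63 (adjusted p = 0.000245).

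On the jasmonate list 1 of 16 genes had the interaction called (15.9% of all genes tested), JAZ9, a repressor of jasmonate responses. Without both tic-2 libraries lettered C, 2 were positive and 3 negative, and the list's median was -0.19, against 0.05 with all libraries. JAZ9 was at 130.3, 107 and 215 FPKM in tic-2 at ZT12 and 23.2, 31.8 and 37.4 in tic-2 at ZT0, against 45.3, 47.4 and 42.6 in Col-0 at ZT12 and 32.1, 30.7 and 35 in Col-0 at ZT0. The tic-2 dusk libraries stood apart above the rest (interaction 1.76, adjusted p = 0.00237). Of genes newly morning-high, MYBL2, a repressor of anthocyanin synthesis, averaged 11.9 ± 2.6 and 48.4 ± 9.25 FPKM in tic-2 at ZT12 and ZT0, against 21.9 ± 4.06 and 20.2 ± 4.93 in Col-0 (interaction -2.06, adjusted p = 0.000593). BCAT2, a branched-chain aminotransferase gene, had an interaction of -2.11 and AT2G30600, a BTB/POZ domain gene, one of -2.28 (adjusted p = 0.00251 and 0.00214). RTFL21, a small peptide gene, had one of -2.21 (adjusted p = 0.00269). AT5G03615 had an interaction of -2.83 (adjusted p = 0.0419), lost under 14 of 21 alternatives, with a highest adjusted p of 0.105.

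**Figure D5:**
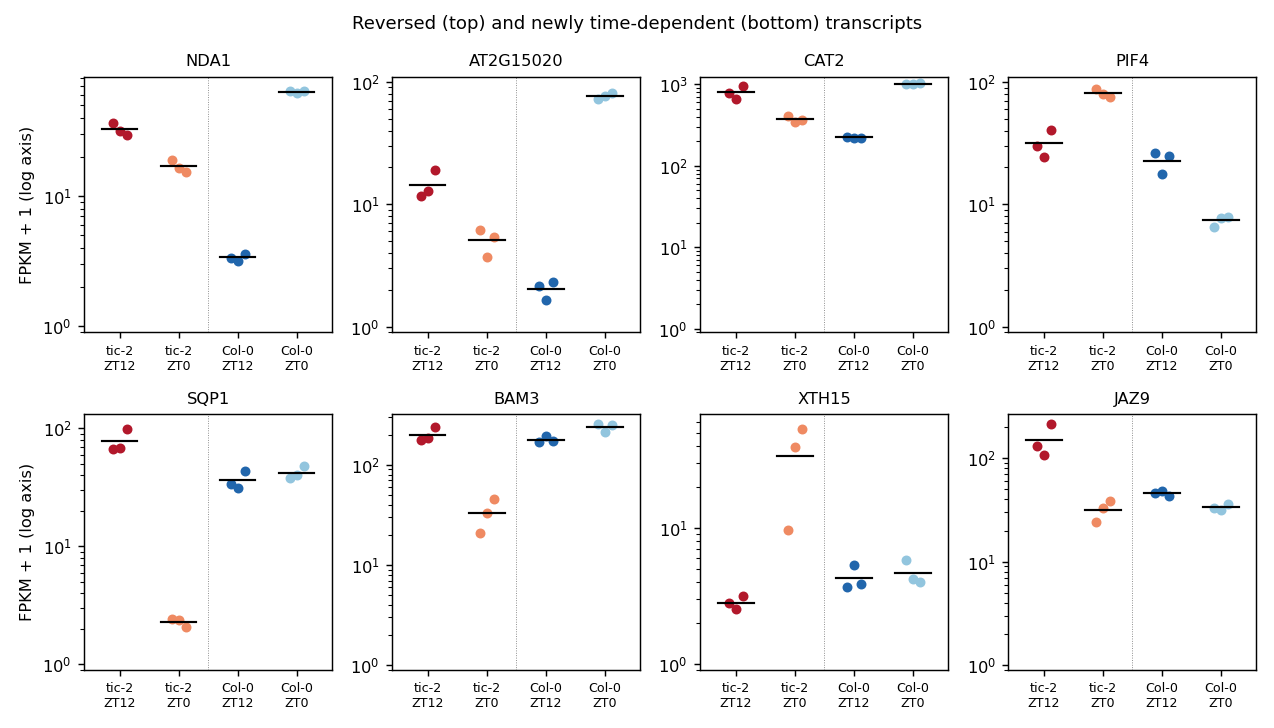
FPKM + 1 on a log axis for 4 reversed genes (top) and 4 newly time-dependent genes (bottom) in tic-2 and Col-0 at ZT12 and ZT0, 1 point per library and a line at the mean of 3 libraries. NDA1, AT2G15020 and CAT2 are highest in Col-0 at ZT0 and have their higher tic-2 level at ZT12, PIF4 the opposite, and SQP1 and BAM3 are low in tic-2 at ZT0 alone.

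Enlarged genes kept the wild-type sign. The 163 evening-high ones had a median time difference of 1.62 in tic-2 and 0.76 in Col-0. Of these, 140 were called lower in tic-2 at ZT0 and 0 higher (14.6% and 13.1% of all genes). The 65 morning-high ones had medians of -1.61 in tic-2 and -0.70 in Col-0, and 55 were called higher in tic-2 at ZT0 and 1 lower. Again the class was sorted by the same group means, so these counts are a description. cPT4, a cis-prenyltransferase gene, stood at 29.1, 27.5 and 33.7 FPKM in tic-2 at ZT12, 0.683, 0.718 and 0.683 in tic-2 at ZT0, 22.7, 20.8 and 28.7 in Col-0 at ZT12 and 13.2, 10.7 and 13.2 in Col-0 at ZT0. Its tic-2 dawn libraries were all under 1 FPKM, apart from the other groups (interaction 3.29, adjusted p = 3.47e-07). CYP707A2, an abscisic acid 8′-hydroxylase gene, had an interaction of 1.69 and PnsB1, a subunit of the chloroplast NDH complex, one of 1.68 (adjusted p = 0.00336 and 0.000555). Of the morning-high genes, the sugar transporter gene STP1 had an interaction of -1.63 and ST2A, a sulfotransferase of hydroxyjasmonate, one of -2.09 (adjusted p = 0.01 and 0.000513).

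Over all genes tested 15.9% were called, 7.28% positive and 8.59% negative, the shares to set beside the list counts that follow. In flavonoid synthesis 1 of 13 was called, DFR, a reductase of anthocyanin synthesis (1.69, adjusted p = 0.0264). A pseudocount of 5 ended the DFR call (adjusted p = 0.191), and so did leaving out any of 4 single libraries. The count on the list was 3 positive after median-of-ratios rescaling or without both tic-2 libraries lettered C, and 2 positive after quantile normalization. In gibberellin and brassinosteroid metabolism 3 of 12 were negative, GID1A, CPD and DET2. GID1A, a gibberellin receptor gene, was at 28.6 ± 1.9 and 28.6 ± 3.2 FPKM in tic-2 at ZT12 and ZT0, against 29.2 ± 0.403 and 14.9 ± 0.521 in Col-0 (interaction -0.93, adjusted p = 0.000392). In iron homeostasis 1 of 11 was called, the ferritin gene FER3 (-0.99, adjusted p = 0.00345), and FER1 had an interaction of 0.07 (SE 0.22, adjusted p = 0.868). In nitrate assimilation 3 of 5 were positive. NIA2, the main nitrate reductase gene, averaged 442 ± 68.9 and 436 ± 182 FPKM in tic-2 at ZT12 and ZT0, against 357 ± 100.5 and 1176 ± 112 in Col-0 (interaction 1.85, adjusted p = 0.00719). GLU1, a glutamate synthase gene, had an interaction of 1.32 and GLN2, the plastid glutamine synthetase gene, one of 0.76 (adjusted p = 0.00683 and 0.0107). The GLN2 call was lost after quantile normalization (adjusted p = 0.0583).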

How the data were processed

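Transcript levels were measured by RNA sequencing, with libraries made from total RNA with a directional kit, per the labels' protocols. The authors deposited 1 table of FPKM values with 12 columns. The build TAIR10 and the tools edgeR, TopHat2 and TopHat were used per the submitters' processing notes, which state no roles or versions. How reads were counted, filtered and assigned to strand is not given in the sources used here. Depth was recovered from the FPKM steps and exon lengths: 99.4% to 99.5% of values per library were whole reads within 0.05 reads. Totals were 19255016 to 21750336 reads. Of the gene IDs, 25452 matched RefSeq TAIR10.1, which gave symbols, coordinates and promoters, and 277 did not. Columns were grouped by the genotype and time in their names, because the description fields of tic-2 predawn and Col-0 postdusk records are exchanged.

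Values were tested as log2(FPKM + 1) in limma 3.58.1 (R 4.3.3), a scale that understates the change of low genes. A filter kept genes with at least 1 FPKM in at least 3 libraries. All 12 libraries entered 1 group-means fit with a mean-variance trend (8 residual and 3.78 prior degrees of freedom) and Benjamini-Hochberg adjustment over 19274 genes. The script was tested on simulated data. A fit with a letter block, other pseudocounts, filters, scalings, weights, class limits and left-out libraries were alternatives.

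Members, classes and the 19 gene lists (222 genes: clock, photoperiod output, PIF, light, starch, light harvesting, cold, carbon starvation, flavonoid, hormone, jasmonate, iron, nitrate and marker lists) were chosen with earlier results of these data known. Of the list genes, 9 were too low to test and 3 are not analysed here. Named genes were TIC, PHYA, PIF4 and the clock lists. To these were added, per class and sign, up to 6 genes by size of interaction with a mean of at least 5 FPKM and times that did not overlap, and up to 3 called genes per other list by adjusted p. Other list members were named after their values were seen. Of 105 named genes, 33 overlap another gene, 30 of them on the opposite strand only, and such pairs cannot be told apart without strand.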

Additional observations from a re-analysis of the deposited data

Results flagged for a closer look

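The time difference differed between tic-2 and Col-0, by the test of the difference itself, for 3060 genes. Among these, 447 were flattened in tic-2, 259 reduced, 237 reversed, 228 enlarged and 297 newly time-dependent. The classes were read from group means and were not tested as classes.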

How the results depend on the processing

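Across the alternatives run, calls shared with the 3060 reported had the same sign in every alternative. The uncalled interactions of TIC (-0.34 to 0.064) and RVE7 (-0.45 to 0.088) crossed 0, and the side with more calls turned with the rescaling. That side also turned when some single libraries were left out, such as the Col-0 ZT0 library lettered C (1103 positive, 1089 negative). Calls numbered 2192 to 3594 with 1 library left out, with 1103 to 1529 positive and 1089 to 2065 negative. Without both tic-2 libraries lettered C, 4419 genes were called, 2638 of them negative, and 91.0% of the 3060 were among them. Array weights gave 7954 calls (2836 positive, 5118 negative), with 12164 for time in tic-2, 9532 for genotype at ZT0 and 10443 at ZT12, and put 420 genes in the reduced and 406 in the enlarged class. Median-of-ratios rescaling left 1068 negative calls. The cause was not tested. Class sizes follow their limits. With 1 for both limits there were 112 reduced, 34 reversed, 58 enlarged and 510 newly time-dependent genes, and with 0.5 for both 954 flattened and 849 newly time-dependent. With a pseudocount of 5 there were 137 reversed and 195 newly time-dependent genes, a scale that shrinks low genes. With a letter as replicate block 2789 genes were called, 2683 of them shared. To check the letters as pairs, each library's deviations from its group means were correlated across genes with those of libraries in other groups. For same-letter libraries these correlations lay between -0.327 and 0.206, with 1 of 18 pairs over 0.1. By this measure 4 of 12 libraries were closest to their own letter, so the letters were not taken as pairs. Of the tests on named genes under alternatives, 2269 kept their side of the threshold, 36 lost a call and 1 gained one. Counts below a few reads, such as FKF1 in Col-0 at ZT0, limit precision.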
